A study of Mus musculus with 9 samples.

Results

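The glutathione enzymes and NRF2 target genes of mouse liver were compared between pair-fed mice, ethanol-fed mice and ethanol-fed mice given a Mettl3 virus. They are 42 of the 16266 genes listed in both deposited tables. Of these, 24 carry the symbol of a glutathione S-transferase, either soluble (alpha, kappa, mu, omega, pi, theta or zeta class) or microsomal. The other 18 were taken by name and cover glutathione synthesis and recycling, peroxide and superoxide removal, the thioredoxin system, a quinone reductase, an epoxide hydrolase, and the regulators Nfe2l2 and Keap1. No expression value enters this rule, but the members were chosen with earlier results of these data known. Their shares beside those of all genes are therefore descriptions. All 42 were found, and 38 passed the low-expression filter (FPKM of at least 1 in at least 3 livers) in each comparison.

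The 9 libraries fell into 3 groups of 3 livers. Wild-type mice received an AAV8 vector by tail vein in which the TBG promoter, active in hepatocytes, drove either a control insert with a FLAG tag (MCS-3×FLAG) or FLAG-tagged Mettl3, the catalytic subunit of the m6A RNA methyltransferase. Feeding began 3 weeks later and lasted 10 days, with a control or an ethanol diet, and ended with 1 binge, of maltose or of ethanol respectively. Livers are called pair-fed or ethanol-fed where the mice carried the control vector, and Mettl3 livers where ethanol-fed mice carried the Mettl3 vector. The sample titles read WT for the first 2 groups and Mettl3OE for the last and name no virus, so the virus comes from the series' design text. A pair-fed group with the Mettl3 virus was not analysed here, and strain, sex and age are not given in the labels.

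Glutathione is a tripeptide made in the cytosol by glutamate-cysteine ligase, whose catalytic subunit is Gclc and whose modifier subunit is Gclm, and then by glutathione synthetase. Glutathione peroxidases use it to reduce peroxides, glutathione reductase recycles the oxidised form, and glutathione S-transferases attach it to electrophiles so that the products can be exported. Many of these genes are induced by NRF2, the transcription factor encoded by Nfe2l2. KEAP1 marks NRF2 for degradation until electrophiles or oxidants modify its cysteines, after which NRF2 enters the nucleus and pairs with a small MAF protein on antioxidant response elements. Hepatocytes hold most of the liver's glutathione, and ethanol oxidation there produces acetaldehyde and reactive oxygen species.

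Library totals recovered from the deposited values ran from 34656256 to 38159563 reads. Mettl3 was at 3.97, 3.10 and 3.38 FPKM in the pair-fed livers and 5.44, 4.86 and 3.78 in the ethanol-fed livers, and at 38.5, 25.0 and 33.3 in the Mettl3 livers, where the value includes the transgene. Sums of Kupffer and sinusoidal endothelial markers were lower in every ethanol-fed than in any pair-fed liver. Those of the other lists overlapped between these groups. The summed FPKM of 7 Kupffer cell genes was 180 to 210.4 in pair-fed, 93.1 to 143 in ethanol-fed and 74.6 to 154 in Mettl3 livers, and 6 of the 7 were lower with ethanol. For 8 sinusoidal endothelial genes the sums were 128 to 145, 96.4 to 106 and 101 to 119, with 6 lower and 1 higher. The 7 stellate cell genes summed to 128 to 151, 112 to 134 and 119.7 to 132, with 3 lower, and 5 cholangiocyte genes to 28.3 to 41.2, 24.2 to 38.8 and 24.9 to 46.9, with 1 of 4 tested higher. Of 8 neutrophil genes, 5 were in the tables (not Mpo, Camp or Elane), and their sums were 5.94 to 9.20, 7.71 to 66.8 and 46.2 to 94.9, with 1 of 2 tested higher. The 8 hepatocyte genes in the tables summed to 65172 to 73102, 53194 to 72650 and 46934 to 57534, the highest sum of the 6 marker lists in all 9 libraries. Of these 8 genes, 2 were higher and 1 lower with ethanol. Among all genes tested, 10.0% were higher and 26.0% lower with ethanol. With median-ratio scaling 2 endothelial genes were higher and 4 lower, and 1 stellate gene was lower. The calls with ethanol in the other marker lists kept their counts, and 17.9% of all genes were higher and 16.5% lower. In bulk tissue, fewer cells of a type and less RNA per cell cannot be told apart, and the part of these markers in the results below was not tested.

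The NRF2 binding motif was searched in the RefSeq promoter windows (GRCm38.p6, 250 bases before to 50 after each start site) as TGACNNNGC, the core of the antioxidant response element, on both strands. It was found in 10 of the 37 members with a window (27.0%) and in 3781 of 27025 genes overall (14.0%). Members can have several windows: 10 of 51 member windows held a match (19.6%), against 12.4% of all 32851 windows. The members without a window were Gclc, Gsr, Gsta4, Gstt2 and Prdx6. Shown here are the 6 members with a match before a start site that were also lower in ethanol-fed livers, since they let the letters be read beside the values that follow. Each run is written in the direction of the gene, with the match in capitals and 25 bases on either side. The Gstm7 match lies before 1 of its 2 start sites and after the other, within the annotated gene. A match is a description of the letters and not a measured binding site.
Gclm promoter (chr3:122245398-122245456, plus strand): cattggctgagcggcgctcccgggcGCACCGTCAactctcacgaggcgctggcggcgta
Gsta3 promoter (chr1:21240439-21240497, plus strand): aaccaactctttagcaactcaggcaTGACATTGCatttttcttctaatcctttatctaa
Prdx1 promoter (chr4:116685441-116685499, plus strand): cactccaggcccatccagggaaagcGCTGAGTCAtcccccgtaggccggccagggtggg
Sod1 promoter (chr16:90220681-90220739, plus strand): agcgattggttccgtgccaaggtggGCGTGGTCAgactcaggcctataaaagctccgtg
Mgst1 promoter (chr6:138140446-138140504, plus strand): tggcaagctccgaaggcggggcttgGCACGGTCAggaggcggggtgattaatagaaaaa
Gstm7 promoter (chr3:107931710-107931768, minus strand): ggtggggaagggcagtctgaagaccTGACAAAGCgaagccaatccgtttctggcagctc

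Matches were then counted by direction of change with ethanol. Of the 15 members lower with ethanol, 12 had a window and 6 held a match. Of the 4 higher members 1 did, Srxn1, and its match lies after the start site. Only the letters TGACNNNGC were searched, so a gene without a match before its start site can still hold another form of the element there. Of the 19 members not called, 17 had a window and 3 held a match: Gstm5, Nfe2l2 and Txnrd1. The 4 members not tested all had a window, and 0 held a match. Among all genes with a window, 14.0% held a match. Whether a match goes with the direction of change was not tested.

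The first comparison asked how the ethanol diet and binge changed these genes in livers with the control virus. Transcripts for both subunits of glutamate-cysteine ligase, for the main peroxide and superoxide enzymes, and for the most abundant alpha and mu transferases fell on the deposited FPKM scale, while 4 genes rose: the plasma peroxidase Gpx3, the sulfiredoxin Srxn1, and the transferases Gstt3 and Gstm3. At a limma Benjamini-Hochberg adjusted p below 0.05, 4 of the 38 tested members were higher and 15 lower, with 19 not called. Among all 10064 genes tested, 10.0% were higher and 26.0% lower, so the share of members lower (39.5%) was above the share of all genes and the share higher (10.5%) was close to it. The median log2 fold change was -0.26 over the members and -0.14 over all genes tested. Of the 38 members 26 were negative (68.4%), against 64.7% of all genes. Fold changes are on the log2(FPKM + 1) scale, a value after ± beside one is its standard error, and a p-value measures only the spread between these livers, since no label names separate animals.

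The lower count depended on how libraries were scaled. With median-ratio scaling the median of all genes moved from -0.14 to 0.01, and the calls over all genes turned from 72.2% lower to 48.0% lower. The members then gave 4 higher and 8 lower, with a median of -0.09, against 17.9% and 16.5% of all genes. The 8 genes that fell on either scale were Gclc, Gclm, Gpx1, Gsta3, Gsto1, Gstt2, Prdx6 and Sod1. These same 8 were lower in the authors' deposited table at a q-value below 0.05, where 12.6% of all 16842 genes were lower and 14.0% higher. That table had 6 members higher, the 4 above and Txnrd1 and Gsta1. Leaving out 1 pair-fed liver gave 3 higher and 9 lower (replicate 1), 2 and 7 (replicate 2) or 3 and 7 (replicate 3). Leaving out 1 ethanol-fed liver gave 6 and 18 (replicate 1), 3 and 10 (replicate 2) or 3 and 7 (replicate 3). Gpx3 and Gstt3 were higher, and Gclm, Gpx1, Gsta3, Gsto1, Gstt2, Prdx6 and Sod1 lower, in all 13 alternatives tried. Of the 38 tested members, the 4 called higher (10.5%) had ethanol-fed values entirely above the pair-fed ones, against 15.4% of all genes. Values lay entirely below for 19 members (50%), against 37.2% of all genes. With median-ratio scaling these counts were 7 (18.4%) and 11 (28.9%), against 27.0% and 25.3% of all genes.

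**Figure D1:**
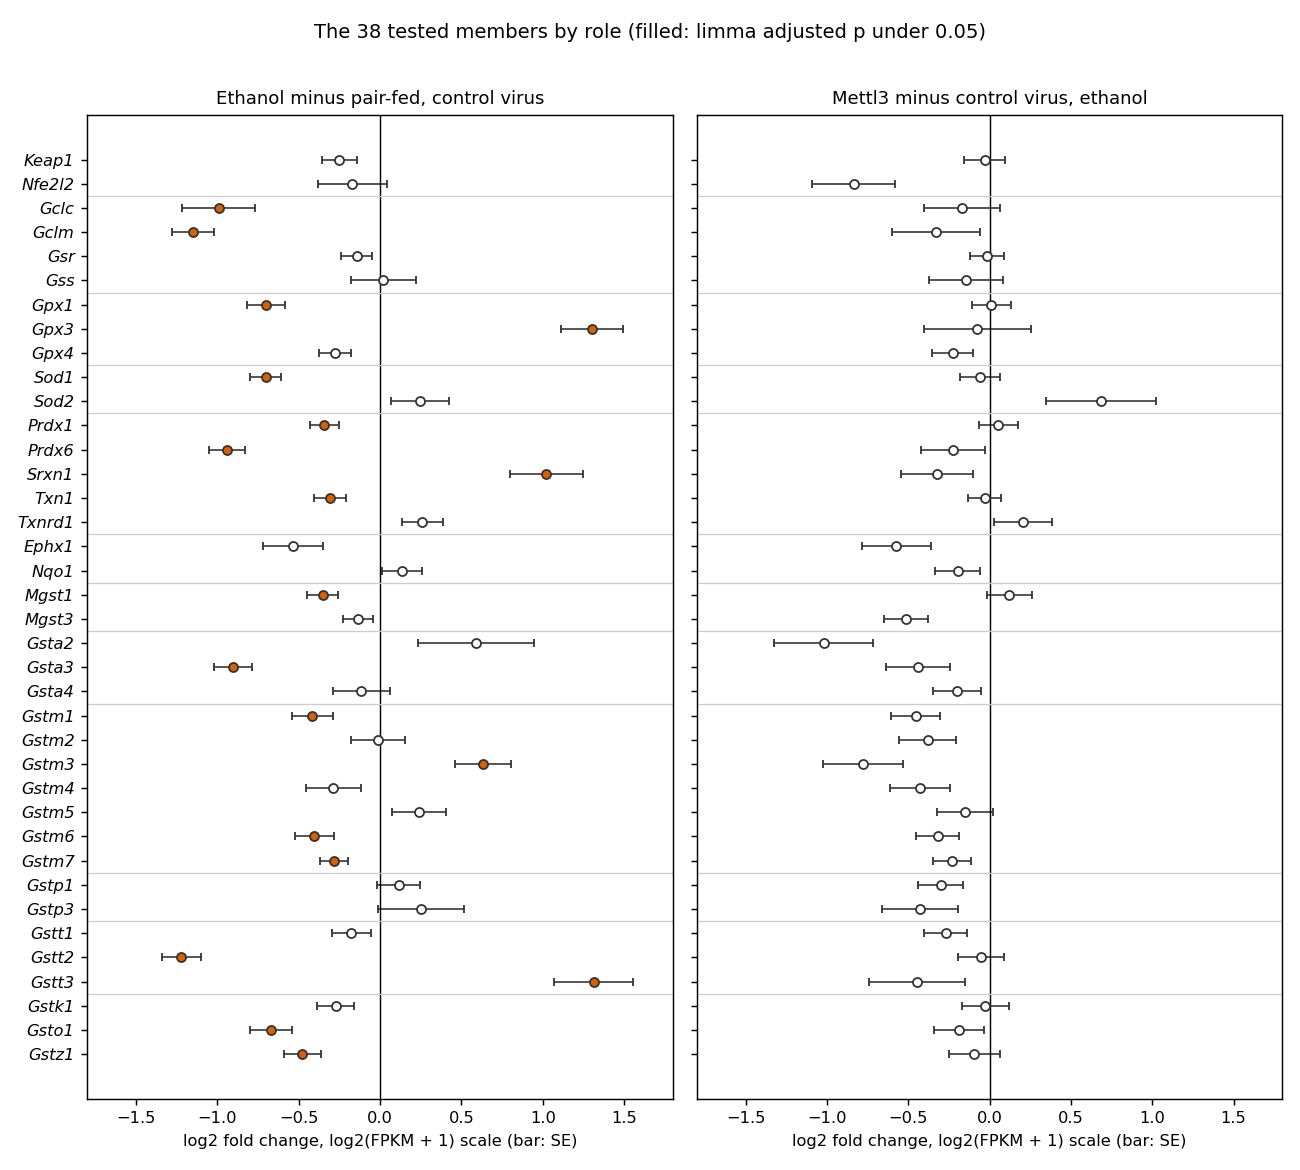
Log2 fold change on the log2(FPKM + 1) scale with its standard error for the 38 tested genes, ordered by role, for ethanol-fed minus pair-fed livers (left) and Mettl3 minus control virus under ethanol (right), with filled points at a limma adjusted p below 0.05. On the left 15 filled points lie below 0 and 4 above, and on the right no point is filled and 33 of 38 lie below 0 (26 with median-ratio scaling). Of all genes in the comparison on the right, 58.9% lay below 0 (45.2% with median-ratio scaling).

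The regulators themselves did not pass the test with ethanol. Nfe2l2 was at 24.0, 25.9 and 24.7 FPKM in the pair-fed livers and 28.8, 24.1 and 15.2 in the ethanol-fed livers, with a log2 fold change of -0.17 ± 0.21 (limma adjusted p = 0.547). The ethanol-fed values straddled the pair-fed ones, with liver 1 above all of them and liver 3 below. Keap1, the inhibitor and sensor, was at 10.3, 10.5 and 11.1 FPKM in pair-fed and 9.28, 9.47 and 7.67 in ethanol-fed livers, with every ethanol-fed value below the pair-fed range and a log2 fold change of -0.25 ± 0.11 (adjusted p = 0.105).

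Both subunits of glutamate-cysteine ligase, the step that limits glutathione synthesis, fell. Gclc was at 68.6, 90.6 and 90.8 FPKM in pair-fed and 58.9, 33.4 and 35.0 in ethanol-fed livers, a log2 fold change of -0.99 ± 0.23 (adjusted p = 0.0150). Gclm was at 97.9, 90.7 and 94.1 FPKM in pair-fed and 47.4, 44.9 and 34.7 in ethanol-fed livers, a change of -1.15 ± 0.13 (adjusted p = 0.00157). Neither gene's groups overlapped, although ethanol-fed liver 1 kept a Gclc value close to that of pair-fed liver 1. The Gclc call was lost without pair-fed 2 (0.0624) or 3 (0.0634), or ethanol-fed 3 (0.0524), the brackets giving the adjusted p without that liver. Gss, which adds glycine to complete the tripeptide, ranged from 30.9 to 32.4 FPKM in pair-fed and from 24.3 to 45.0 in ethanol-fed livers and was not called (log2 fold change 0.02 ± 0.20, adjusted p = 0.945). The ratio of Gclm to Gss within a liver was 3.02, 2.93 and 2.94 in pair-fed and 1.05, 1.47 and 1.43 in ethanol-fed livers. Gsr, which returns oxidised glutathione to its reduced form, was at 14.2, 14.9 and 16.2 FPKM in pair-fed and 13.1, 14.4 and 13.2 in ethanol-fed livers, and was not called (-0.14 ± 0.10, adjusted p = 0.268).

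Among the peroxidases the 2 called genes went in opposite directions. Gpx1, the abundant selenoenzyme of the cytosol, was at 1036, 922 and 1154 FPKM in pair-fed and 669, 637 and 601 in ethanol-fed livers, a change of -0.70 ± 0.12 (adjusted p = 0.00497). Gpx3, the secreted form best known from kidney, was at 3.84, 2.56 and 2.34 FPKM in pair-fed and 6.60, 9.42 and 9.87 in ethanol-fed livers, a change of 1.30 ± 0.19 (adjusted p = 0.00342). Per length, its level stayed far below that of Gpx1 in every liver. Gpx4, which reduces lipid hydroperoxides in membranes, was at 123, 116 and 114 FPKM in pair-fed and 106, 95.7 and 90.0 in ethanol-fed livers, with no overlap between groups, and was not called (-0.28 ± 0.10, adjusted p = 0.0592). It was called lower without ethanol-fed liver 1 (adjusted p = 0.0177) and with a mean FPKM of at least 5 (0.0499). Its reads are uncertain, since 61.7% of the 50-base stretches of its transcript also occur in other genes, its processed pseudogene foremost.

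Of the superoxide dismutases, Sod1 fell and Sod2 did not pass the test. The cytosolic copper-zinc enzyme Sod1 was at 975, 1004 and 1090 FPKM in pair-fed and 628, 614 and 641 in ethanol-fed livers, a change of -0.70 ± 0.09 (adjusted p = 0.00259) with tight groups far apart. Of its transcript's 50-base stretches, 23.1% occur elsewhere. The mitochondrial manganese enzyme Sod2 was at 39.1, 38.5 and 40.8 FPKM in pair-fed and 34.9, 57.4 and 51.9 in ethanol-fed livers, and was not called (0.25 ± 0.18, adjusted p = 0.304). Ethanol-fed liver 1 was below every pair-fed value for Sod2 and the other 2 ethanol-fed livers above. Without that liver, Sod2 was called higher, with a log2 fold change of 0.46 and an adjusted p of 0.0063.

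The thioredoxin system reduces protein disulfides and peroxides in parallel with glutathione. In this group, the peroxiredoxins Prdx6 and Prdx1 fell on the deposited FPKM scale, while Srxn1 rose. Prdx6, a peroxiredoxin that draws on glutathione, was at 176, 189 and 180.4 FPKM in pair-fed and 107, 92.5 and 84.7 in ethanol-fed livers, a change of -0.94 ± 0.11 (adjusted p = 0.00179). Prdx1, the abundant cytosolic peroxiredoxin, was at 577, 599.8 and 632 FPKM in pair-fed and 479.8, 467 and 479 in ethanol-fed livers (-0.34 ± 0.09, adjusted p = 0.0242). Srxn1, the sulfiredoxin that restores overoxidised peroxiredoxins, was at 8.79, 6.87 and 6.54 FPKM in pair-fed and 22.7, 15.0 and 11.8 in ethanol-fed livers, a change of 1.02 ± 0.22 (adjusted p = 0.0132). All 3 genes had separate groups. Srxn1 lost its call without pair-fed 2 (0.0554) or 3 (0.0583). Txn1, the thioredoxin itself, was at 114, 112 and 128 FPKM in pair-fed and 95.3, 88.9 and 99.9 in ethanol-fed livers (-0.31 ± 0.10, adjusted p = 0.0426). Txnrd1, its NADPH-dependent reductase, was at 28.0, 27.0 and 28.2 FPKM in pair-fed and 28.2, 38.7 and 34.1 in ethanol-fed livers and was not called (0.26 ± 0.13, adjusted p = 0.140), with ethanol-fed liver 1 inside the pair-fed range. Without that liver its adjusted p was 0.0149. The calls of Prdx1 and Txn1 ended with median-ratio scaling, at adjusted p = 0.291 and 0.445. Without single livers, Prdx1 lost its call when leaving out pair-fed 1 (0.0653), 2 (0.0971) or 3 (0.0953), or ethanol-fed 2 (0.0556) or 3 (0.0525), and Txn1 when leaving out pair-fed 1 (0.0969), 2 (0.09995) or 3 (0.151), or ethanol-fed 2 (0.109) or 3 (0.0572).

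The quinone reductase and the epoxide hydrolase were not called. Nqo1, the enzyme most often used as a readout of NRF2, was low in every liver, at 2.05, 2.10 and 1.38 FPKM in pair-fed and 2.10, 2.02 and 2.20 in ethanol-fed livers (0.14 ± 0.12, adjusted p = 0.412). Ephx1, the microsomal epoxide hydrolase, was at 142, 171 and 129 FPKM in pair-fed and 130.4, 94.7 and 82.7 in ethanol-fed livers (-0.53 ± 0.18, adjusted p = 0.0566), with ethanol-fed liver 1 inside the pair-fed range. Without that liver Ephx1 was called lower, with a log2 fold change of -0.72 and an adjusted p of 0.0055.

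**Figure D2:**
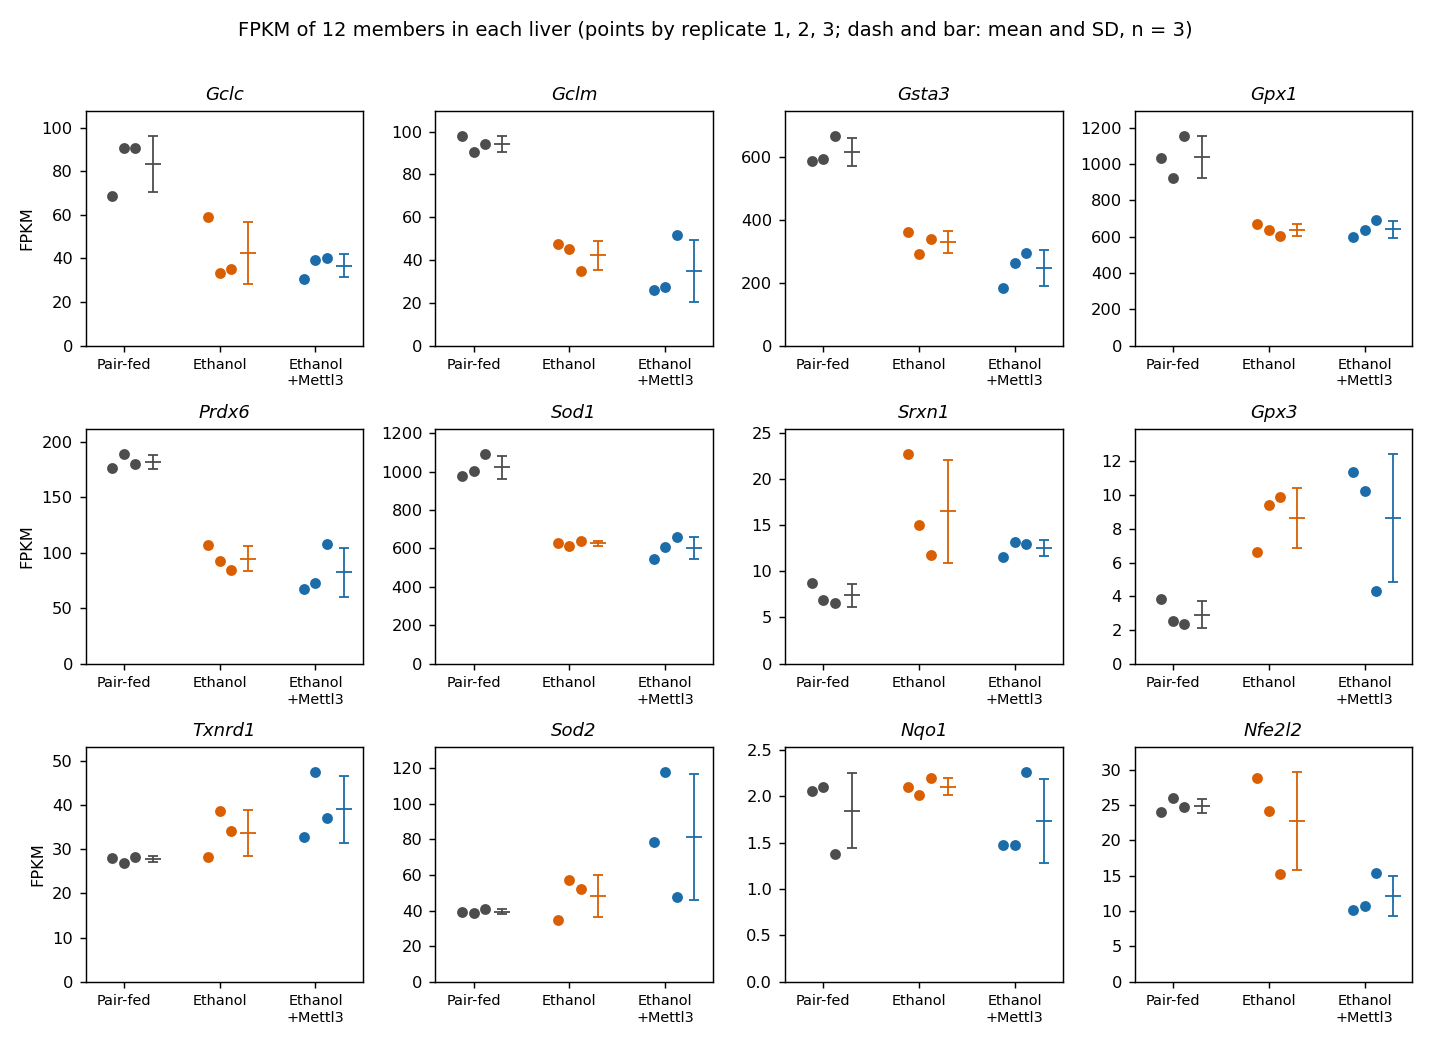
FPKM of 12 genes in each liver (points, replicates 1 to 3 from left to right) with the mean and SD of each group (dash and bar, n = 3), each axis starting at 0. Gclm, Gsta3, Gpx1, Prdx6 and Sod1 lie lower in all ethanol-fed and Mettl3 livers than in any pair-fed liver, Srxn1 and Gpx3 lie higher, and Nqo1 stays between 1.38 and 2.26 FPKM.

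The membrane-bound transferases were led by Mgst1, the member with the highest level of all 42. It was at 1336, 1448 and 1432 FPKM in pair-fed and 1167, 1075 and 1057 in ethanol-fed livers (-0.35 ± 0.10, adjusted p = 0.0281), with separate groups. The call ended with median-ratio scaling (adjusted p = 0.227), and without pair-fed 1 (0.0700), 2 (0.122) or 3 (0.0982), or ethanol-fed 2 (0.0626) or 3 (0.0739). Mgst3 was at 15.7, 17.2 and 17.1 FPKM in pair-fed and 14.6, 14.7 and 15.9 in ethanol-fed livers and was not called (adjusted p = 0.278). Mgst2 never exceeded 0.144 FPKM and was not tested.

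The summed level of the soluble transferases was lower in every ethanol-fed liver than in any pair-fed liver. The sum over 21 genes was 1987, 2065 and 2188 FPKM in pair-fed livers (2080.0 ± 101, mean ± SD, n = 3) and 1614, 1519 and 1620 in ethanol-fed livers (1584 ± 56.5). The alpha sum went from 665 ± 57.5 to 379 ± 31.2, and the mu sum from 688 ± 34.3 to 554 ± 64.2. The omega, kappa and zeta sum went from 320.4 ± 8.88 to 234 ± 28.9. Pi (126 ± 3.90 and 138 ± 17.6) and theta (281 ± 12.3 and 280.1 ± 45.2) had sums whose groups overlapped. These sums are on the deposited FPKM scale, without median-ratio scaling, and were not tested.

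**Figure D3:**
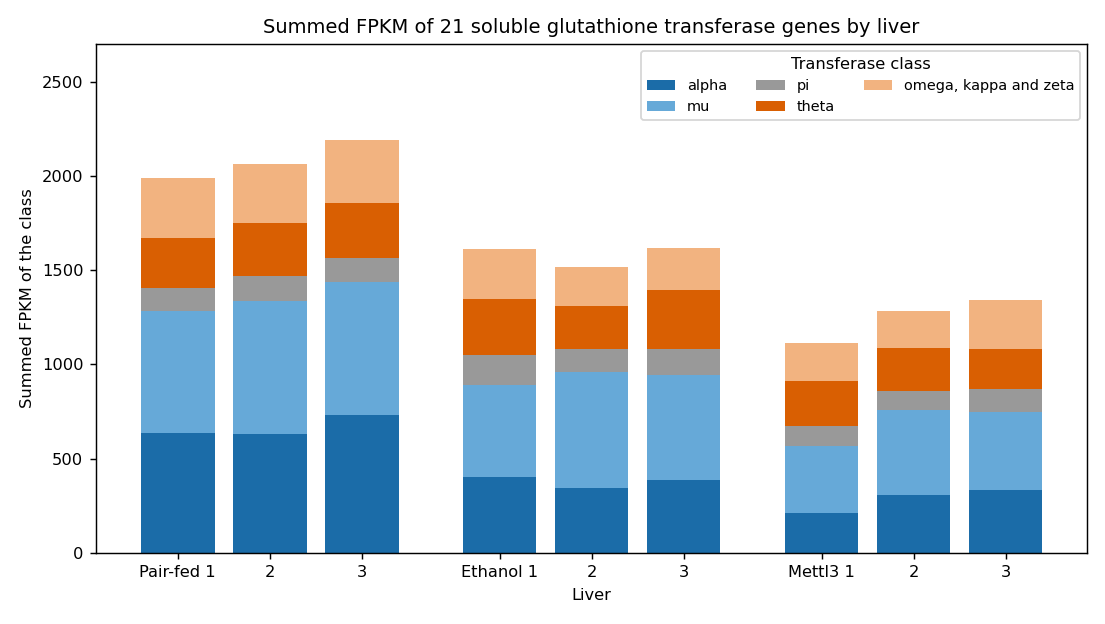
Stacked bars give the summed FPKM of the 21 soluble transferase genes in each of the 9 livers, split by class. The bars reach 1987 to 2188 in pair-fed, 1519 to 1620 in ethanol-fed and 1116 to 1341 in Mettl3 livers, and the alpha and mu parts shrink most in FPKM.

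In the alpha class, whose enzymes conjugate lipid peroxidation products and many drugs, the sum was carried by Gsta3. Gsta3 was at 589.5, 593 and 667 FPKM in pair-fed and 361, 291 and 338 in ethanol-fed livers, a change of -0.90 ± 0.12 (adjusted p = 0.00229), and the groups were far apart. Gsta2 was at 6.38, 4.21 and 13.7 FPKM in pair-fed and 11.6, 14.4 and 9.00 in ethanol-fed livers and was not called (adjusted p = 0.231), except without pair-fed liver 3 (log2 fold change 1.01, adjusted p = 0.0367). Gsta4, which favours 4-hydroxynonenal, ranged from 30.9 to 49.7 FPKM in pair-fed and from 31.6 to 39.2 in ethanol-fed livers (adjusted p = 0.627). Gsta1 stayed at or below 0.935 FPKM and was not tested, and 89.7% of its 50-base stretches occur in other genes, as do 64.2% of those of Gsta2.

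The mu class genes lie within 149 kb on chromosome 3, and neighbours there differed in direction. Gstm1, the most abundant, was at 495, 544 and 567 FPKM in pair-fed and 348, 450.5 and 409 in ethanol-fed livers (-0.42 ± 0.12, adjusted p = 0.0358). Gstm6 was at 23.4, 25.2 and 30.1 FPKM in pair-fed and 19.7, 20.8 and 18.1 in ethanol-fed livers (-0.40 ± 0.12, adjusted p = 0.0348), and Gstm7 at 24.4, 26.4 and 25.5 FPKM in pair-fed and 21.7, 20.4 and 20.1 in ethanol-fed livers (-0.28 ± 0.09, adjusted p = 0.0401). Gstm3, between Gstm6 and Gstm2 on the chromosome, was at 18.6, 20.1 and 17.7 FPKM in pair-fed and 22.3, 35.9 and 32.5 in ethanol-fed livers, a rise of 0.63 ± 0.17 (adjusted p = 0.0269). No ethanol-fed value of these 4 genes fell within its pair-fed range. Median-ratio scaling ended the calls of Gstm1, Gstm6 and Gstm7 (adjusted p = 0.286, 0.187 and 0.368) and kept that of Gstm3 (0.0240). Leaving out single livers ended the call of Gstm1 without pair-fed 1 (0.0660), 2 (0.119) or 3 (0.123), or ethanol-fed 3 (0.0754). It ended that of Gstm3 without pair-fed 1 (0.0753), 2 (0.0685) or 3 (0.0957), or ethanol-fed 2 (0.0733) or 3 (0.0818), that of Gstm6 without pair-fed 2 (0.0948) or 3 (0.121), or ethanol-fed 2 (0.0548) or 3 (0.0912), and that of Gstm7 without pair-fed 1 (0.0886), 2 (0.169) or 3 (0.124), or ethanol-fed 2 (0.0906) or 3 (0.0823). Gstm4 was at 14.4, 15.9 and 10.2 FPKM in pair-fed and 11.3, 9.39 and 11.5 in ethanol-fed livers and was not called (adjusted p = 0.219). Gstm2 (48.9 to 71.3 FPKM over both groups) and Gstm5 (6.96 to 12.2) were not called either, at adjusted p = 0.961 and 0.289. Reads of Gstm1 and Gstm3 are in part shared, since 23.1% and 28.8% of their 50-base stretches recur in other genes, each other included.

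No gene of the pi class was called. Gstp1 was at 97.3, 106 and 115 FPKM in pair-fed and 131, 97.4 and 118 in ethanol-fed livers (0.11 ± 0.13, adjusted p = 0.519). Gstp3 ranged from 11.6 to 25.3 FPKM over both groups (adjusted p = 0.479), and Gstp2 did not exceed 1.15 in any liver and was not tested. Gstp1 and Gstp2 share 62.3% and 72.6% of their 50-base stretches with other genes, mainly each other.

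In the theta class, the genes at the ends of the cluster moved in opposite directions. Its 3 genes lie within 63.3 kb of chromosome 10 (GRCm38): Gstt3 at chr10:75774117-75781422, Gstt1 at chr10:75783813-75798584 and Gstt2 at chr10:75831842-75837419. Gstt3 was at 26.3, 21.6 and 35.0 FPKM in pair-fed and 75.4, 49.4 and 87.4 in ethanol-fed livers, a rise of 1.31 ± 0.24 (adjusted p = 0.00722). Gstt2 was at 28.6, 35.5 and 36.8 FPKM in pair-fed and 13.8, 13.0 and 14.5 in ethanol-fed livers, a change of -1.22 ± 0.12 (adjusted p = 0.00103). Between them, Gstt1 was at 213, 226 and 221 FPKM in pair-fed and 210.1, 166 and 211 in ethanol-fed livers and was not called (adjusted p = 0.272). Within a liver, which removes any scaling between libraries, the ratio of Gstt3 to Gstt2 was 0.919, 0.608 and 0.950 in pair-fed and 5.46, 3.79 and 6.02 in ethanol-fed livers. The lowest ethanol-fed ratio was thus well above the highest pair-fed one. Of the Gstt3 transcript's 50-base stretches, 26.0% also lie in the overlapping predicted gene Gm20441, and its share of the reads was not tested.

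**Figure D4:**
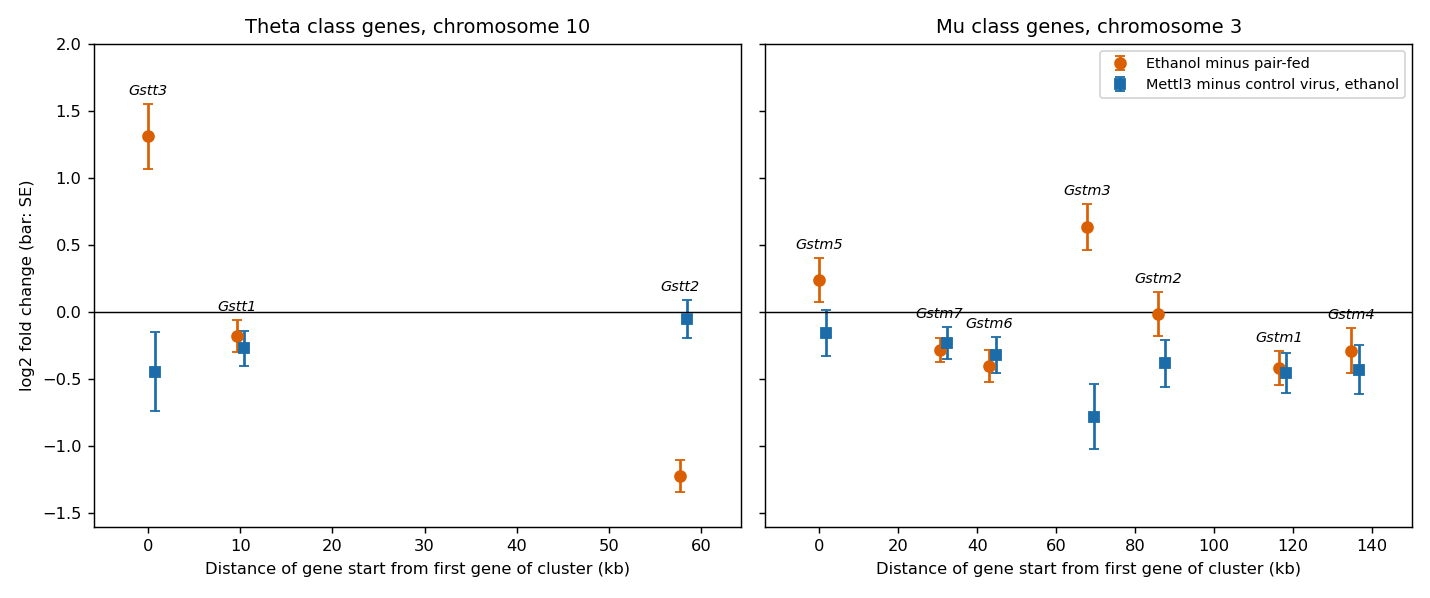
Log2 fold change with its standard error against the distance of each gene's start from the first gene of its cluster, in kb, for the theta genes of chromosome 10 (left) and the mu genes of chromosome 3 (right), with ethanol minus pair-fed as circles and Mettl3 minus control virus under ethanol as squares. With ethanol Gstt3 (1.31) and Gstt2 (-1.22) lie on opposite sides of 0 and Gstm3 (0.63) stands above its mu neighbours, while all 10 squares lie below 0 (with median-ratio scaling that of Gstt2 lies above, at 0.03).

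In the omega, zeta and kappa classes 2 of 3 tested genes fell. Gsto1, which reduces glutathione mixed disulfides, was at 61.7, 69.1 and 73.4 FPKM in pair-fed and 49.4, 37.6 and 40.6 in ethanol-fed livers (-0.67 ± 0.13, adjusted p = 0.00783). Gstz1, an isomerase of tyrosine breakdown, was at 165, 164 and 158 FPKM in pair-fed and 134, 103 and 112 in ethanol-fed livers (-0.48 ± 0.11, adjusted p = 0.0174). Both had separate groups. The Gstz1 call ended with median-ratio scaling (adjusted p = 0.0565), and without pair-fed 1 (0.0610), 2 (0.0704) or 3 (0.0578), or ethanol-fed 3 (0.0510). Gstk1 of peroxisomes and mitochondria ranged from 83.2 to 99.6 FPKM in pair-fed and from 67.3 to 81.8 in ethanol-fed livers and was not called (adjusted p = 0.0954), except without ethanol-fed liver 1 (0.0376). Gsto2 did not exceed 0.0618 FPKM.

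Genes of the same pathways outside the 42 were counted from 4 lists. Of 86 tested, 5 were higher and 29 lower with ethanol, with a median log2 fold change of -0.22, against 10.0% higher and 26.0% lower among all genes. With median-ratio scaling 10 were higher and 23 lower of 85, against 17.9% and 16.5% of all genes. Among 26 other reported NRF2 targets 3 were higher and 10 lower, and 3 and 8 with median-ratio scaling, to be read against the same shares. Hmox1, the heme oxygenase, went from 15.1 ± 0.540 to 40.2 ± 9.12 FPKM (SD, n = 3; 1.34 ± 0.17, adjusted p = 0.00220), and Mt1, a metallothionein, from 50.1 ± 8.02 to 1098 ± 582 (4.26 ± 0.42, adjusted p = 0.00107). The bile canaliculus exporter of glutathione conjugates Abcc2 fell from 124 ± 23.9 to 47.3 ± 10.3 FPKM (-1.37 ± 0.19, adjusted p = 0.00308). Osgin1, the biliverdin reductase Blvrb and the glucuronosyltransferase Ugt1a6b fell as well, with changes of -1.25 ± 0.13, -0.88 ± 0.09 and -0.61 ± 0.09. The list thus held genes moving in both directions.

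Among 26 tested genes of glutathione supply and use 1 was higher and 7 lower, against 10.0% and 26.0% of all genes. With median-ratio scaling 3 were higher and 5 lower of 25, against 17.9% and 16.5% of all genes. The higher gene was Chac1, an enzyme that degrades glutathione and is induced by the unfolded protein response, which went from 1.77 ± 0.348 to 17.6 ± 13.3 FPKM (2.53 ± 0.42, adjusted p = 0.00515). Its relative Chac2 fell (-0.87 ± 0.20). The methylglyoxal-clearing pair Glo1 and Hagh fell by 0.75 and 1.00 on the log2 scale (adjusted p = 0.00266 and 0.00186), and Idh1, a source of cytosolic NADPH, went from 164 ± 4.71 to 89.0 ± 4.94 FPKM (-0.88 ± 0.09, adjusted p = 0.00115). Esd, also on this list, changed by -0.57 ± 0.09.

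Of 24 other antioxidant genes none was higher and 11 were lower (limma, with 13 at an unadjusted p below 0.05 in either direction), against 10.0% and 26.0% of all genes. An unadjusted p below 0.05 was found in limma for 47.6% of all genes. With median-ratio scaling 1 was higher and 9 lower, against 17.9% and 16.5%. Catalase (Cat) went from 855 ± 36.3 to 372 ± 9.78 FPKM (-1.20 ± 0.09, adjusted p = 0.000488). Ccs, the copper chaperone of Sod1, went from 90.9 ± 4.83 to 51.8 ± 1.52 (-0.80 ± 0.09, adjusted p = 0.00138). Txnrd2 and Txnrd3, relatives of Txnrd1, changed by -0.79 ± 0.13 and -1.11 ± 0.10, the soluble epoxide hydrolase Ephx2 by -1.09 ± 0.10, and the methionine sulfoxide reductase Msrb1 by -0.79 ± 0.09. Of 10 tested partners and regulators of NRF2 1 was higher and 1 lower, against 10.0% and 26.0% of all genes. Mafk was higher (0.31 ± 0.10, adjusted p = 0.0417) and Mafg lower (-0.75 ± 0.13, adjusted p = 0.00534), and both encode small MAF proteins. With median-ratio scaling 3 of the 10 were higher and 1 lower, against 17.9% and 16.5% of all genes.

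The second comparison asked what the Mettl3 virus added in ethanol-fed livers. No member passed the test, and 1 gene of all 9706 tested did, Mettl3 itself, so 0.0103% of genes were called higher and 0.0% lower. The same was found for the members with limma-voom on recovered reads, and in the authors' deposited table at a q-value below 0.05, where 0.103% of genes were higher and 0.51% lower. At an unadjusted p below 0.05, limma gave 7 members (18.4%, against 7.45% of all genes) and voom 5 (13.2%, against 8.72% of all genes). Leaving out Mettl3 liver 1 gave 4 members, against 3.34% of all genes, and leaving out Mettl3 liver 3 gave 16, against 18.1% of all genes. The median log2 fold change was -0.21 over the members and -0.04 over all genes, and 33 of 38 members were negative against 58.9% of all genes. With median-ratio scaling the medians were -0.14 and 0.02, and 26 members were negative against 45.2% of all genes. No member had all Mettl3 values above the ethanol-fed ones, against 6.17% of all genes. All values lay below for 8 of the 38 members (21.1%), against 6.62% of all genes. They were Gsta2, Gstm1, Gstm2, Gstm3, Gstm6, Gstm7, Gstt1 and Mgst3. With median-ratio scaling 4 members (10.5%) had all values below, Ephx1, Gpx4, Gstm7 and Nfe2l2, again against 6.62%. None had all values above, against 8.48%.

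The 5 smallest p-values belonged to Mgst3, Gsta2, Nfe2l2, Gstm3 and Gstm1, each at an adjusted p of 0.641. Mgst3 was at 8.66, 11.7 and 10.6 FPKM in the Mettl3 livers, below the ethanol-fed 14.6 to 15.9 (log2 fold change -0.51 ± 0.13, unadjusted p = 0.00622 in limma). Gsta2 was at 3.58, 8.81 and 4.16, below the ethanol-fed 9.00 to 14.4 (-1.02 ± 0.31, unadjusted p = 0.0121 in limma). Both sets of values lay apart without passing the adjusted threshold. Nfe2l2 was at 10.2, 10.7 and 15.3 FPKM, against 28.8, 24.1 and 15.2 with the control virus (-0.84 ± 0.25, unadjusted p = 0.0131 in limma), and the groups touched where Mettl3 liver 3 and ethanol-fed liver 3 had nearly equal values. Gstm3 was at 12.5, 21.9 and 17.5 (-0.78 ± 0.24, unadjusted p = 0.0150 in limma) and Gstm1 at 262, 329 and 288 (-0.45 ± 0.15, unadjusted p = 0.0183 in limma), both below every ethanol-fed value. Of the 83 pathway genes outside the 42 that were tested, none was called by limma or by voom. In limma 11 had an unadjusted p below 0.05, against 7.45% of all genes, and 66 were negative, against 58.9%. With median-ratio scaling these counts were 12 and 57, against 8.80% and 45.2% of all genes. A p that misses the threshold does not show that the levels were equal.

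For members that had fallen with ethanol, all Mettl3 values were below the pair-fed range. Gclm was at 25.9, 27.2 and 51.5 FPKM (-0.33 ± 0.27 against the control virus), Gclc at 30.4, 39.4 and 40.2 (-0.17 ± 0.23) and Gpx1 at 596, 636 and 691 (0.01 ± 0.12). Sod1 was at 546, 605 and 661 (-0.06 ± 0.12) and Prdx6 at 67.0, 72.6 and 108 (-0.22 ± 0.20). Gsta3 was at 183, 264 and 295 (-0.44 ± 0.20), with Mettl3 liver 3 the one to overlap the ethanol-fed range. None of these 6 passed the limma test, with adjusted p from 0.641 to 0.984. The summed soluble transferases were at 1116, 1284 and 1341 FPKM, each below the ethanol-fed 1519 to 1620. The alpha sum was 284 ± 63.2 and the mu sum 406 ± 47.6 (SD, n = 3), both untested.

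Of the 4 genes that had risen with ethanol, Gpx3 and Srxn1 were above the pair-fed range in all 3 Mettl3 livers, and Gstt3 and Gstm3 were not. Gpx3 was at 11.4, 10.2 and 4.29 FPKM, Srxn1 at 11.6, 13.1 and 13.0 and Gstt3 at 65.1, 57.2 and 34.0. For Gpx3 and Gstt3, Mettl3 liver 3 was the lowest of the 6 ethanol livers. The ratio of Gstt3 to Gstt2 was 4.79, 5.16 and 2.21 in the Mettl3 livers, above every pair-fed liver in each. Sod2 was at 78.7, 118 and 47.4 FPKM, with livers 1 and 2 above and liver 3 inside the ethanol-fed range, and Txnrd1 at 32.7, 47.4 and 37.0. Their log2 fold changes against the control virus were 0.68 ± 0.34 and 0.20 ± 0.18, with limma adjusted p = 0.641 and 0.730.

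Mettl3 livers were also set against pair-fed livers, a comparison that shares its libraries with both others and joins the virus and the diet. Here 5 members were higher and 20 lower of 38, while 13.9% and 34.9% of all 10229 genes were, and the medians were -0.41 for the members and -0.18 for all genes. With median-ratio scaling 5 were higher and 16 lower, against 25.5% and 21.3% of all genes, and the median of all genes moved to 0.04. The higher members were Gpx3, Gstt3, Sod2, Srxn1 and Txnrd1. Without single livers the counts were 2 higher and 18 lower (pair-fed 1), 1 and 18 (pair-fed 2), 2 and 18 (pair-fed 3), 3 and 17 (Mettl3 1), 1 and 18 (Mettl3 2) and 5 and 21 (Mettl3 3). In all 13 alternatives Gpx3 was called higher and 16 of the 20 lower genes were called lower. The exceptions among the lower genes were Gstm4, Gstt1, Prdx1 and Txn1. Values did not overlap for 4 higher members (10.5%, against 19.3% of all genes) and 22 lower members (57.9%, against 44.2%). With median-ratio scaling they did not for 7 (18.4%, against 32.8%) and 17 (44.7%, against 28.2%).

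Of the members named in this comparison, 8 had not been called with ethanol alone: Nfe2l2, Gpx4, Ephx1, Mgst3, Gstm4 and Gstt1 were lower, and Sod2 and Txnrd1 higher. Whether they differ between the comparisons was not tested. Nfe2l2, at 24.9 ± 0.959 FPKM in pair-fed and 12.1 ± 2.83 in Mettl3 livers (SD, n = 3), changed by -1.01 ± 0.22 (limma adjusted p = 0.00612). Its change with ethanol alone was -0.17 and with the Mettl3 virus under ethanol -0.84. Ephx1 was at 59.8, 60.2 and 84.6 FPKM in the Mettl3 livers (-1.11 ± 0.20, adjusted p = 0.00282) and Gpx4 at 75.6, 81.4 and 91.9 (-0.50 ± 0.11, adjusted p = 0.00494). Mgst3 changed by -0.65 ± 0.11 (adjusted p = 0.00258). These 4 genes were separate from the pair-fed values in all 3 Mettl3 livers. Gstm4, at 6.71, 6.56 and 10.3 FPKM, changed by -0.71 ± 0.20 (adjusted p = 0.0158), and lost the call with median-ratio scaling (0.0571) and without pair-fed 1 (0.0533) or 2 (0.0642), or Mettl3 1 (0.0611) or 2 (0.0604). Gstt1, at 160.2, 158 and 165, changed by -0.45 ± 0.11 (adjusted p = 0.00995), and lost it with median-ratio scaling (0.254). Sod2 changed by 0.93 ± 0.30 (adjusted p = 0.0280) and Txnrd1 by 0.46 ± 0.15 (adjusted p = 0.0322). The Sod2 call was lost without pair-fed 1 (0.0687), 2 (0.0754) or 3 (0.0673), or Mettl3 1 (0.0765) or 2 (0.0873), and that of Txnrd1 without pair-fed 1 (0.0742), 2 (0.0919) or 3 (0.0751), or Mettl3 2 (0.114). The summed neutrophil markers, 5.94 to 9.20 FPKM in pair-fed and 46.2 to 94.9 in Mettl3 livers, moved with these 2 higher genes, and their part was not tested.

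The remaining called members kept the direction seen with ethanol alone. Gclm changed by -1.48 ± 0.24, Gclc by -1.16 ± 0.22, Gsta3 by -1.34 ± 0.17, Gstt2 by -1.27 ± 0.14 and Prdx6 by -1.16 ± 0.17, all with a limma adjusted p at or below 0.00357. With ethanol alone the changes of these 5 had been -1.15, -0.99, -0.90, -1.22 and -0.94. Gstm1, at 262, 329 and 288 FPKM, changed by -0.87 ± 0.13 (adjusted p = 0.00147), Gstm6, at 13.2, 16.9 and 16.5, by -0.72 ± 0.13 and Gstm7, at 15.9, 17.0 and 19.8, by -0.51 ± 0.10. These 3 held with median-ratio scaling (adjusted p = 0.0175, 0.0223 and 0.0400). Gsto1 was at 35.0, 33.5 and 43.1 (-0.86 ± 0.14) and Gstz1 at 99.6, 98.9 and 129.9 (-0.57 ± 0.14). Prdx1, at 446, 529 and 509, and Txn1, at 90.7, 94.1 and 92.9, changed by -0.29 ± 0.10 and -0.34 ± 0.09, and both lost their call with median-ratio scaling (adjusted p = 0.914 and 0.638). They also lost it without single livers, Prdx1 without pair-fed 1 (0.0649), 2 (0.0963) or 3 (0.119), or Mettl3 1 (0.130) or 2 (0.0509) and Txn1 without pair-fed 3 (0.0615), or Mettl3 1 (0.0503). Among the higher genes, Gpx3 changed by 1.23 ± 0.31, Gstt3 by 0.87 ± 0.29 and Srxn1 by 0.70 ± 0.21. Gstt3 lost its call without pair-fed 1 (0.0812) or 2 (0.114), or Mettl3 1 (0.116) or 2 (0.102), and Srxn1 without pair-fed 2 (0.0680) or 3 (0.0738), or Mettl3 2 (0.0632). Mgst1 (1037, 1293 and 1271 FPKM) and Gstm3 were called with ethanol alone and not here, at adjusted p = 0.118 and 0.597. Keap1 (7.71, 9.11 and 8.93 FPKM), Gsr (12.6, 13.6 and 13.9), Nqo1 (1.47, 1.47 and 2.26), Gstp1 (91.1, 88.1 and 99.5) and Gstt2 (13.6, 11.1 and 15.4) complete the values in the Mettl3 livers, and Keap1 was not called (adjusted p = 0.0529). Keap1 was called lower in a fit of the 6 libraries compared (adjusted p = 0.0407) and with a mean FPKM of at least 5 (0.0481), and Gstk1 was called lower without Mettl3 liver 3 (0.0153). In the pathway lists 3 of 86 genes were higher and 42 lower, against 13.9% and 34.9% of all genes. With median-ratio scaling 10 were higher and 27 lower of 85, against 25.5% and 21.3% of all genes.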

How the data were processed

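RNA sequencing had been run on 9 mouse livers, 3 in each of 3 groups, with groups taken from the sample titles. Per the submitters' processing notes, fastp, HISAT2 and HTSeq were used with mouse build mm10; versions, annotation and strand setting are not given in the sources used here. The authors deposited FPKM for each library in 2 tables of 16842 and 16470 genes that share the ethanol-fed columns, which differed by a relative 1.08e-06 at most. Per the file headers, the deposited signal columns are means of counts over size factors named after DESeq2. The deposited ratio (linear fold), its log2 and the p-value and q-value columns are the authors' own comparisons, used only where the text names the authors' deposited table.

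The test was limma (3.58.1, R 4.3.3; eBayes, trended and robust) on log2(FPKM + 1). A gene was tested where 3 or more fitted libraries reached 1 FPKM, with Benjamini-Hochberg adjustment over all genes tested and a threshold of 0.05. Each of the ethanol and Mettl3 comparisons used the 6 libraries it compares, and Mettl3 against pair-fed used 9. The pseudocount understates fold changes of low genes. Whole reads were recovered from the FPKM and signal columns for 100% of the values under 1000 reads, within a tolerance of 0.05, and served for depth and for limma-voom. Library totals were 34656256 to 38159563 reads, and standard errors come from the spread between livers.

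Alternatives were a pseudocount of 0.1, no filter, a mean FPKM of at least 5, median-ratio scaling, a fit with the other number of libraries, limma-voom on recovered reads, the replicate number as a block, and leaving out each liver. The fits were tested on simulated data. Genes were matched to RefSeq (GRCm38.p6; 42 of 42 by Entrez number), and 50-base stretches shared between genes were counted in GENCODE transcripts. Tables and figures were made with pandas 2.3.3, numpy 2.4.6 and matplotlib 3.10.9 under Python 3.11.15.

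The members and gene lists were chosen with earlier results of these data known. All members are accounted for. Values in each library are given for members past the threshold in any comparison, the most abundant member of each role, Nfe2l2, Keap1, Nqo1, Gclc, Gclm, Gsr and Txnrd1, and the 5 with the smallest unadjusted p in the Mettl3 comparison. Of each pathway list, up to 6 called genes with separate groups and the smallest p are named. Other genes in the text serve as checks.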

Additional observations from a re-analysis of the deposited data

How the results depend on the processing

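The 38 tested members and Mettl3 gave 1517 values over the alternatives, which were not listed for the pathway genes named singly. Of these, 1394 kept their side of the threshold, 110 lost a call, 13 gained one and 0 reversed among called values. The 1394 include 66 values that changed sign without being called in either fit. A pseudocount of 0.1 changed no call.

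For ethanol-fed against pair-fed livers, the lower members were 15, and 8 with median-ratio scaling or voom. Over all genes the higher calls were 1009, and 622 with a mean FPKM of at least 5, 1795 with median-ratio scaling and 1751 with voom. The lower calls were 2616, and 1675 and 1660 with the first 2 of these. Leaving out 1 liver gave 2 to 6 higher and 7 to 18 lower members, 408 (without pair-fed liver 2 or 3) to 1098 higher and 1130 (without pair-fed liver 2) to 3645 lower genes. Pathway genes outside the 42 that were higher numbered 5, and 10 with median-ratio scaling, 3 with all 9 libraries and 9 with voom; without single livers they were 3 (without pair-fed liver 3 or ethanol-fed liver 2) to 7, and the lower ones, 29 in all, were 19 (without pair-fed liver 2) to 35. Members whose groups do not overlap were 4 higher and 19 lower, and 7 and 11 with median-ratio scaling, an alternative chosen after seeing the data.

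For Mettl3 against control virus, 1 gene was higher, and 0 with no filter; without single livers it was 0 to 1. Lower genes were 0, with 2 in a fit of all 9 libraries and 0 to 1 without single livers. Members with separate groups were 8 lower, and 4 with median-ratio scaling, also chosen after seeing the data.

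For Mettl3 against pair-fed livers, higher members were 5, and 1 to 5 without single livers. Over all genes 1424 were higher, and 900 with a mean FPKM of at least 5, 2599 with median-ratio scaling, 2386 with voom and 944 (without pair-fed liver 3) to 1598 without single livers. Lower genes were 3572, and 1944 and 2169 with the first 2. Higher pathway genes were 3, and 10 with median-ratio scaling and 6 with voom; lower ones were 42, and 27 with median-ratio scaling. Members with separate groups and higher values were 4, and 7 with median-ratio scaling, likewise chosen after seeing the data. The cause of these changes was not tested.

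Replicate numbers did not pair the livers. The deviations of same-numbered livers correlated at -0.19, -0.11 and 0.11 (ethanol against pair-fed), -0.35, 0.39 and -0.41 (Mettl3 against control virus) and 0.05, -0.05 and 0.09 (Mettl3 against pair-fed), and not every liver correlated best with its own number. With the replicate block, 4 members were higher and 9 lower with ethanol, 0 genes were called for the Mettl3 virus, and 4 members were higher and 19 lower in Mettl3 against pair-fed livers.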

Other observations

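Within groups, single livers stood at the ends of many of these genes at once. Among the 38 tested members, Mettl3 liver 1 was the lowest of its group in 25 and Mettl3 liver 3 the highest in 23. Ethanol-fed liver 1 was the highest of its group in 19, and pair-fed liver 3 in 19. The members share each library's depth and scaling, so these counts are not independent, and what sets them was not tested.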
